A study of Mus musculus with 11 samples.

Results

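Mertk and Timd4, which encode receptors that macrophages use to take up apoptotic cells, were examined as 2 of the 754 genes that the table of this series lists. They were chosen by name, for their role, with earlier results of these data known, and both were above the detection floor in all 11 mice. All mice were female C57BI/6 (spelled as in the labels), 6 to 8 weeks old, and received intraperitoneal injections on days 0 and 2. Peritoneal macrophages were sorted on day 4 and measured with a Nanostring myeloid immunity panel, which counts transcripts with a barcoded probe for each gene. PBS was given to 2 Rα+/+ mice, numbered 1 and 2, and to 2 RαTd/Td mice, numbered 3 and 4, and IL-4c was given to 3 Rα+/+ mice, numbered 5 to 7, and to 4 RαTd/Td mice, numbered 9 to 12. IL-4c is IL-4 complexed to an anti-IL-4 antibody, which prolongs its action in vivo, and PBS is its vehicle. In the RαTd allele the coding exons of Retnla, the gene of RELMα, are replaced by the TdTomato reporter in every cell, so that RαTd/Td mice lack RELMα and make TdTomato, and no group separates these changes. Rα+/+ mice were wild-type animals of the same breeding.

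Macrophages recognize dying cells by phosphatidylserine on their surface. MERTK is a receptor tyrosine kinase of the TAM family that does not touch the lipid itself but binds the bridging proteins GAS6 and protein S, and its signal drives engulfment and restrains inflammatory cytokine production. TIM-4, the product of Timd4, binds phosphatidylserine directly, has a short cytoplasmic tail and tethers the corpse, so that other receptors such as MERTK complete the uptake. In the peritoneal cavity both are known on resident large macrophages, and TIM-4 is widely used to recognize macrophages that have resided there for long.

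The bases upstream of each gene are shown because both genes fell after IL-4c, as many tested genes did, and because the 2 sequences differ in kind. Whether these bases have a part in the fall was not tested. They are from RefSeq on GRCm38.p6, read 5′ to 3′ on the plus strand, on which both genes lie, and end at the base before the annotated gene. Mertk spans chr2:128698915-128803162 and Timd4 spans chr11:46810786-46844333. Capitals mark the GC boxes in Mertk, and in Timd4 an ETS-IRF composite element and a TATA-like stretch, in this order. The motifs were picked with the sequences and earlier results known.
Mertk, chr2:128698665-128698914: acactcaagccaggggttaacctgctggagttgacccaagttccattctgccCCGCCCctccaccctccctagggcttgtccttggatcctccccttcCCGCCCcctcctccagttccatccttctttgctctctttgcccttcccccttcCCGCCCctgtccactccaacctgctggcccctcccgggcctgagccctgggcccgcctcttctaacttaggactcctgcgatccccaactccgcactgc
Timd4, chr11:46810549-46810785: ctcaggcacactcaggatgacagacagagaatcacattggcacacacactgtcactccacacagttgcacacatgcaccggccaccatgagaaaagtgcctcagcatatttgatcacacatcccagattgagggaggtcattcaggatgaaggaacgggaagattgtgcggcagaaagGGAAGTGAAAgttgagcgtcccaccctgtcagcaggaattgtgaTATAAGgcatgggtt

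The Mertk stretch of 250 bases was 63.6% G and C and held 3 GC boxes (GGGCGG, here on the minus strand) starting 198, 152 and 99 bases before the gene. The Timd4 stretch of 237 bases was 50.2% G and C and held no GC box. It held TATAAG 15 bases before the gene and the ETS-IRF element, GGAA and GAAA set 2 bases apart, at 59 bases. Searched on both strands over the RefSeq windows of 300 bases around 32851 gene starts, GGGCGG was found in 35.7% of windows, TATAAG in 7.43% and the ETS-IRF element in 2.72%. Neither window held a STAT6-type site, TTC and GAA set 4 bases apart, found in 6.95% of windows, or the GATA core GATAA, found in 25.4%. These matches describe letters and are not evidence of binding.

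The counts behind the values, recovered by dividing each mouse's normalized counts by its own scaling factor, summed to between 268858 and 574505 per mouse over the genes above the floor. Normalized counts are counts scaled to 4 housekeeping genes, with low values set to a floor of 30. Retnla was at the floor in all 6 RαTd/Td mice, while Rα+/+ mice held 4141 and 4631 normalized counts after PBS and from 115675 to 171588 after IL-4c, so the labels of genotype and treatment were borne out. The sort markers Adgre1, which encodes F4/80, and Itgam, which encodes CD11b, were high in every mouse, between 5897 and 10617 and between 7780 and 11245 normalized counts. The positive control probes, synthetic targets added to each lane, averaged 853 to 1021 counts for PBS-treated mice. After IL-4c they averaged 301 to 441 counts for Rα+/+ and 507 to 623 counts for RαTd/Td mice. The part of these differences in the IL-4c results below, and in the differences between genotypes after IL-4c, was not tested.

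Mertk was at 532 and 429 normalized counts in the PBS-treated Rα+/+ mice (mice 1 and 2) and at 736 and 749 in the PBS-treated RαTd/Td mice (mice 3 and 4). After IL-4c it was at 212, 198 and 276 in Rα+/+ mice (mice 5, 6 and 7) and at 331, 353, 442 and 442 in RαTd/Td mice (mice 9, 10, 11 and 12). In order of their means, the groups were IL-4c-treated Rα+/+ (229 ± 41.8, SD, n = 3), IL-4c-treated RαTd/Td (392 ± 58.1, n = 4), PBS-treated Rα+/+ (481 ± 73.0, n = 2) and PBS-treated RαTd/Td (743 ± 9.21, n = 2). Only the middle pair of neighbours overlapped, since mice 11 and 12 lay above mouse 2. That pair of groups differs in both treatment and genotype and was not tested.

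Timd4 was at 3970 and 2567 normalized counts in the PBS-treated Rα+/+ mice and at 4130 and 4623 in the PBS-treated RαTd/Td mice. After IL-4c it was at 1044, 1236 and 1161 in Rα+/+ mice and at 1371, 1441, 1646 and 1307 in RαTd/Td mice. The order of the groups was that of Mertk, with means of 1147 ± 96.8 (SD, n = 3), 1441 ± 147 (n = 4), 3268 ± 992 (n = 2) and 4377 ± 349 (n = 2). No neighbouring groups overlapped, but the gap between mice 1 and 3 was small beside that between mice 1 and 2, and mouse 2 alone set the low mean of the PBS-treated Rα+/+ group. After IL-4c the nearest mice of the genotypes were mouse 12 at 1307 and mouse 6 at 1236.

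**Figure D1:**
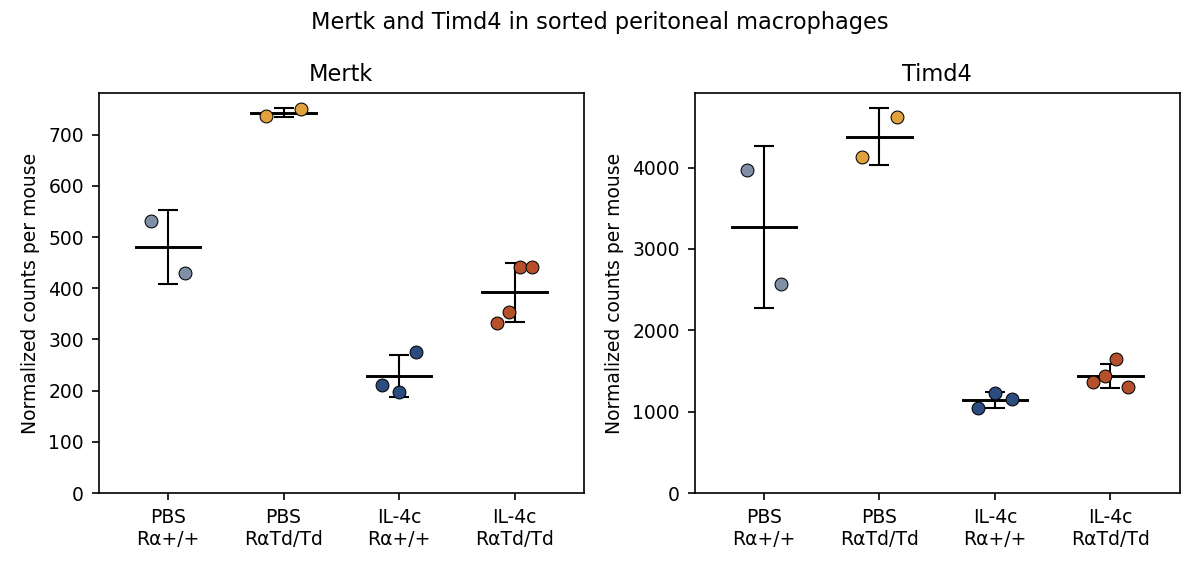
Mertk (left) and Timd4 (right) in normalized counts, with each point 1 mouse, the horizontal line the group mean and the bars 1 SD, for 2, 2, 3 and 4 mice from left to right. Both genes were lower after IL-4c in each genotype and higher in RαTd/Td than in Rα+/+ mice of the same treatment, with the 2 PBS-treated Rα+/+ mice of Timd4 far apart at 2567 and 3970.

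Counting error was small beside these differences. Mertk rested on 163 to 572 counts per mouse, for a counting error of 4.18 to 7.83%, and Timd4 on 912 to 3423 counts, for 1.71 to 3.31%. Within groups the coefficient of variation of Mertk was 15.2%, 1.24%, 18.3% and 14.8% in the order PBS-treated Rα+/+ and RαTd/Td, IL-4c-treated Rα+/+ and RαTd/Td, and that of Timd4 was 30.4%, 7.98%, 8.44% and 10.2%. All but the second of these, Mertk in mice 3 and 4, exceeded the error that counting alone gives. In these bulk lysates, fewer cells that express a gene and less RNA of it per cell cannot be told apart.

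The first comparison asked how IL-4c changed the receptors in each genotype. In Rα+/+ macrophages Mertk fell 2.11-fold (log2 fold change -1.08, SE 0.19, 95% interval -1.50 to -0.65, adjusted p = 0.00128 from limma) and Timd4 fell 2.79-fold (log2 fold change -1.48, SE 0.18, interval -1.89 to -1.07, adjusted p = 0.000174 from limma). Of the 445 genes tested, 32.4% were called lower in this comparison, at an adjusted p of 0.05 or less, and 42.9% had groups that did not overlap in that direction. In RαTd/Td macrophages Mertk fell 1.91-fold (log2 fold change -0.93, SE 0.18, interval -1.33 to -0.53, adjusted p = 0.00191 from limma) and Timd4 fell 3.04-fold (log2 fold change -1.61, SE 0.17, interval -1.998 to -1.21, adjusted p = 8.80e-05 from limma). There 36.6% of genes were called lower and 43.6% did not overlap in that direction, so a call in this direction was common. By size Timd4 was the 46th and 36th most lowered of the 445 genes in Rα+/+ and RαTd/Td mice, and Mertk the 73rd and 90th.

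For both genes every IL-4c-treated mouse lay below every PBS-treated mouse of its genotype. Of all tested genes, 42.9% showed this in Rα+/+ and 43.6% in RαTd/Td mice, and the share that showed it in both was not counted. The fall averaged over the genotypes was 1.00 on the log2 scale for Mertk and 1.54 for Timd4 (exact permutation test within genotypes, two-sided p = 0.00667 for each, the smallest that the 150 arrangements allow). The median log2 change over all tested genes was -0.18 in Rα+/+ and -0.23 in RαTd/Td mice. Centring each mouse on its median gene in place of the housekeeping genes raised that median by 0.30 and 0.26. Relative to the median gene Mertk changed by -0.90 and -0.70 and Timd4 by -1.30 and -1.37 in Rα+/+ and RαTd/Td mice.

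**Figure D2:**
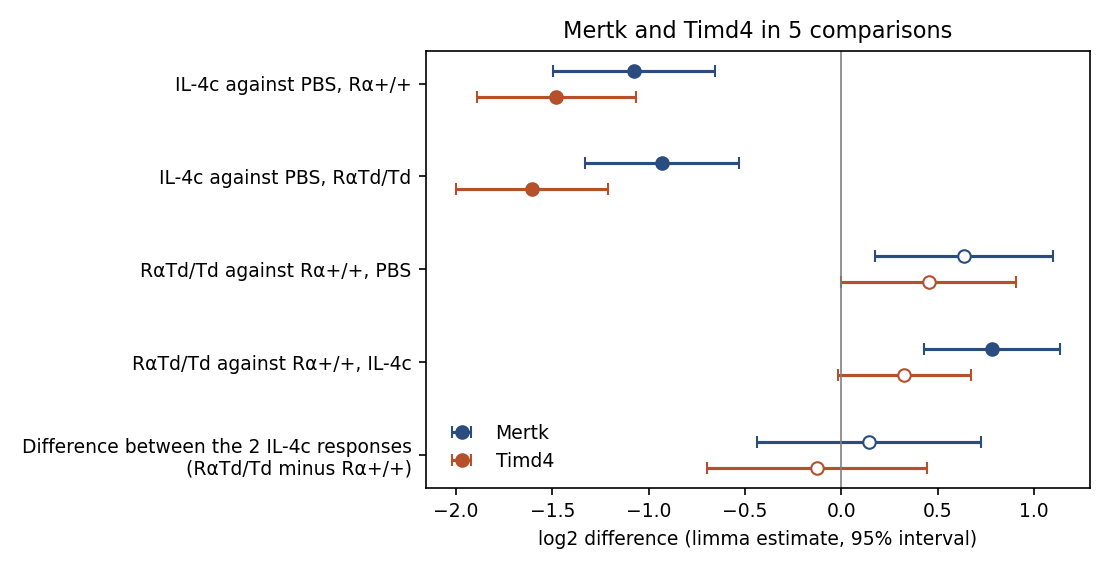
Limma estimates of the log2 difference of Mertk and Timd4 in 5 comparisons, with bars for the 95% interval and filled points for an adjusted p of 0.05 or less. Both genes fell with IL-4c in both genotypes (-1.08 and -0.93 for Mertk, -1.48 and -1.61 for Timd4), and of the 4 differences between genotypes only that of Mertk after IL-4c (0.78) was called.

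The second comparison asked whether the receptors differed between macrophages with and without RELMα. After PBS, Mertk was 1.55-fold higher in RαTd/Td mice (log2 difference 0.64, SE 0.21, 95% interval 0.17 to 1.10), which was not called (adjusted p = 0.0929 from limma). Timd4 was 1.37-fold higher (log2 difference 0.45, SE 0.20, interval -0.00 to 0.91) and was not called either (adjusted p = 0.217 from limma). In this comparison 8.09% of genes were called higher in RαTd/Td mice, and 35.5% did not overlap in that direction, as both receptors did not. The Timd4 difference rested on the pair of PBS-treated Rα+/+ mice. It was 0.77 and called without mouse 1 (adjusted p = 0.0189 from limma) and 0.14 without mouse 2.

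After IL-4c, Mertk was 1.72-fold higher in RαTd/Td mice (log2 difference 0.78, SE 0.16, 95% interval 0.43 to 1.13, adjusted p = 0.0421 from limma), 1 of the 7 genes, or 1.57% of those tested, that were called higher. Timd4 was 1.25-fold higher (log2 difference 0.33, SE 0.15, interval -0.02 to 0.67) and was not called (adjusted p = 0.237 from limma). Both were among the 16.4% of genes whose groups did not overlap in this direction. The Mertk call lay close to the threshold. It was lost when any of mice 1, 2, 3 and 4 was left out, at the same log2 difference and adjusted p-values of 0.0554 to 0.0842 from limma, and without mouse 5 (0.73), 6 (0.68), 11 (0.72) or 12 (0.72). It was kept without mouse 7, 9 or 10, and lost after centring on the median gene (0.59, adjusted p = 0.0525 from limma) and after quantile normalization (0.57, adjusted p = 0.0762 from limma).

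Averaged over both treatments, Mertk was higher in RαTd/Td mice by 0.71 on the log2 scale and Timd4 by 0.39 (exact permutation test within treatments, two-sided p = 0.00476 for each, the smallest that the 210 arrangements allow). For both genes every RαTd/Td mouse lay above every Rα+/+ mouse of its treatment. This ordering held for 35.5% of all tested genes among PBS-treated mice and for 16.4% among IL-4c-treated mice. How many genes showed it under both treatments was not counted. For Mertk the p-value of the permutation test was below 0.05 in all 18 alternatives tried. For Timd4 it was not below 0.05 without mouse 3 (0.43, p = 0.0952) or mouse 4 (0.35, p = 0.152) in the same exact permutation test, nor under 3 of the other scalings.

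The median gene tested was itself higher in RαTd/Td mice, by 0.10 (PBS) and 0.12 (IL-4c) on the log2 scale. Relative to it Mertk was higher by 0.53 and 0.66 and Timd4 by 0.35 and 0.21. The genes listed for small macrophages and monocytes summed to more in RαTd/Td mice, with overlap between the genotypes after IL-4c. Of this list 7 of the 8 genes on the panel were detected. The summed level of this list, with genes at the floor counted as 0, was 7716 to 9465 normalized counts in PBS-treated Rα+/+ mice and 24534 to 32822 in PBS-treated RαTd/Td mice, and 4534 to 7941 and 7345 to 19447 after IL-4c. Most of it was Cd74, H2-Aa, H2-Ab1 and H2-Eb1, of antigen presentation by MHC class II, while Ccr2, a monocyte chemokine receptor, was at 175 to 353 in PBS-treated Rα+/+ and 249 to 259 in PBS-treated RαTd/Td mice. The other members did not all go the same way. After PBS, Irf4 was at 100 to 143 in Rα+/+ and 171 to 174 in RαTd/Td mice. Mrc1, the mannose receptor gene, was at 162 to 203 in Rα+/+ and 123 to 135 in RαTd/Td mice. After IL-4c the genotypes overlapped for Ccr2, Irf4 and Mrc1. Whether the share of small macrophages and monocytes differed, and its part in the receptor differences, was not tested.

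**Figure D3:**
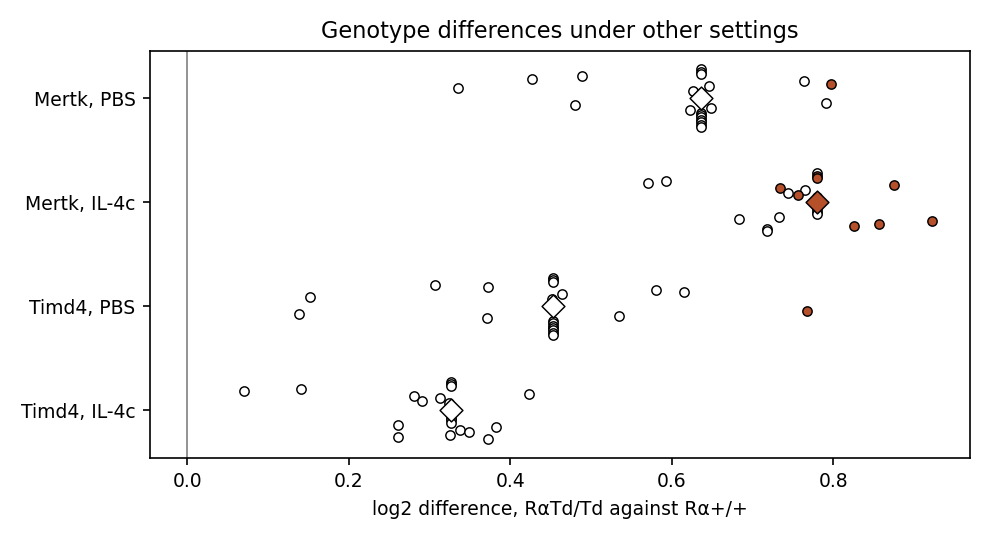
Log2 difference of RαTd/Td against Rα+/+ mice for Mertk and Timd4 after PBS and after IL-4c, with the reported value as a diamond and each alternative (another scaling, filter, test or 1 mouse left out) as a circle, filled where p, adjusted or as that alternative defines it, was 0.05 or less. All values lay above 0, from 0.33 to 0.80 and 0.57 to 0.92 for Mertk and from 0.14 to 0.77 and 0.07 to 0.42 for Timd4, and the Mertk difference after IL-4c was called in 10 of 25 alternatives.

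The IL-4c response itself was also compared between the genotypes. The log2 fold change of Mertk was 0.14 higher in RαTd/Td than in Rα+/+ mice (SE 0.26, 95% interval -0.44 to 0.72, adjusted p = 0.791 from limma) and that of Timd4 was lower, at -0.13 (SE 0.25, interval -0.70 to 0.44, adjusted p = 0.807 from limma). In this test 2.02% of genes were called. As ratios of the fold changes, RαTd/Td over Rα+/+, the intervals run from 0.739 to 1.65 for Mertk and from 0.617 to 1.36 for Timd4, so that differences of such sizes were not detectable with these mice. The sign of both values was not stable, since that of Mertk was -0.01 without mouse 1 and that of Timd4 was 0.19 without mouse 2.

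Timd4 fell further than Mertk. The ratio of Timd4 to Mertk, whose size depends on the efficiency of both probes and which is read only between groups, was 7.46 and 5.98 in PBS-treated Rα+/+ mice and 5.61 and 6.17 in PBS-treated RαTd/Td mice. After IL-4c it was 4.93, 6.25 and 4.21 in Rα+/+ mice and 4.14, 4.08, 3.72 and 2.96 in RαTd/Td mice. The groups of Rα+/+ mice overlapped, since mouse 6 lay above mouse 2, while those of RαTd/Td mice did not. Over both genotypes the log2 ratio was 0.54 lower after IL-4c (exact permutation test within genotypes, two-sided p = 0.02). Over both treatments it was 0.32 lower in RαTd/Td than in Rα+/+ mice (exact permutation test within treatments, two-sided p = 0.0333). These were 2 of 6 such tests, and their p-values are unadjusted. In the same exact permutation tests the first was not below 0.05 without mouse 1 (-0.46, p = 0.05) or mouse 4 (-0.50, p = 0.06). The second was below 0.05 only without mouse 2, 4 or 7, and otherwise p lay between 0.05 and 0.105, at -0.24 without mouse 1, -0.28 without mouse 3, -0.33 without mouse 5, -0.24 without mouse 6, -0.34 without mouse 9 or 10, -0.32 without mouse 11 and -0.26 without mouse 12.

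**Figure D4:**
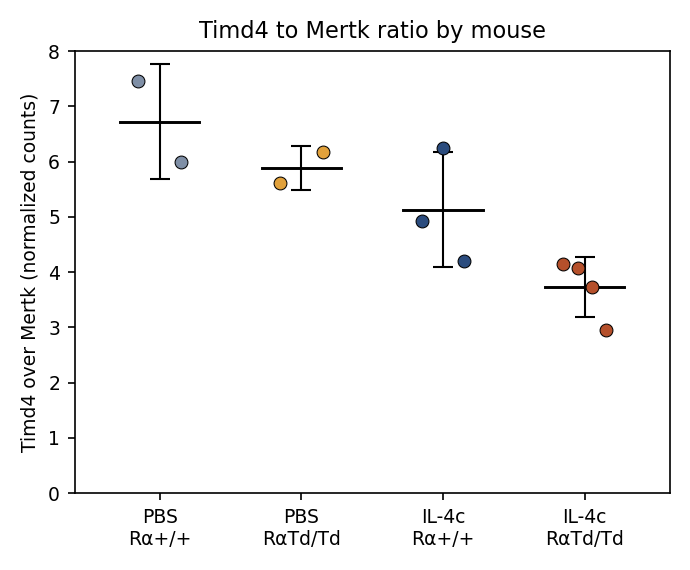
Ratio of Timd4 to Mertk normalized counts, with each point 1 mouse, the horizontal line the group mean and the bars 1 SD. The 4 IL-4c-treated RαTd/Td mice held the lowest values, 2.96 to 4.14, against 5.61 to 7.46 in the 4 PBS-treated mice.

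Some other receptors for apoptotic cells also fell. Of a list of 23 such genes the panel measured 8, of which Havcr1 and Havcr2, paralogs of Timd4, were at the floor in all mice. Of the 4 tested beside Mertk and Timd4, 3 fell after IL-4c in Rα+/+ mice and 2 in RαTd/Td mice, where 32.4% and 36.6% of all tested genes were called lower. Over all 6, with Mertk and Timd4 included, the median log2 changes were -1.69 and -1.27, against -0.18 and -0.23 over all tested genes. Beside Mertk and Timd4, Cd14, a lipopolysaccharide co-receptor that also tethers apoptotic cells, changed by -2.09 and -1.63 in Rα+/+ and RαTd/Td mice, and Cd36, a scavenger receptor for oxidized lipids, by -1.90 and -1.89 (adjusted p between 0.000136 and 0.00455 from limma). The Cd36 fall in Rα+/+ mice was -1.44 and not called without mouse 1.

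Stab1, which encodes the phosphatidylserine receptor stabilin-1, went from 242 and 474 normalized counts to between 42.9 and 50.4 in Rα+/+ mice, a log2 fold change of -2.84 (adjusted p = 0.0005 from limma). In RαTd/Td mice it was already at 114 and 128 after PBS and between 50.5 and 148 after IL-4c, with overlapping groups (log2 fold change -0.46, adjusted p = 0.362 from limma). The difference between these responses was 2.38 on the log2 scale and was not called (adjusted p = 0.0571 from limma). Olr1, a receptor for oxidized lipoproteins, was above the floor in 1 mouse only. Between genotypes no receptor of the list was called after PBS. After IL-4c, Cd14 was called higher with Mertk in RαTd/Td mice, at 519 to 847 against 307 to 358 normalized counts (log2 difference 0.97, adjusted p = 0.0421 from limma), a call kept in 12 of 25 alternatives and lost without any one mouse other than 9 or 10 (0.86 to 1.02).

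The bridging molecules moved in both directions. Pros1, which encodes the Mertk ligand protein S, was at 742 and 910 normalized counts in PBS-treated Rα+/+ mice and 599 to 672 after IL-4c, and its log2 changes of -0.36 and -0.37 were not called (adjusted p = 0.0848 and 0.0626 from limma). Gas6 was not measured by the panel. The complement component genes C1qa, C1qb and C1qc, whose products coat apoptotic cells, fell in both genotypes, by 1.52, 0.77 and 1.27 on the log2 scale in Rα+/+ mice and by 1.03, 0.46 and 0.81 in RαTd/Td mice. The C1qb fall in RαTd/Td mice was not called after centring on the median gene (-0.20) or without mouse 4 (-0.36). C3, the central complement component, rose by 2.84 in Rα+/+ and by 2.53 in RαTd/Td mice, where 13.9% and 15.3% of all tested genes were called higher.

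Calr, which encodes the eat-me signal calreticulin, and Anxa1, which encodes the pro-resolving phosphatidylserine binder annexin A1, rose in RαTd/Td mice by 0.70 and 0.59 on the log2 scale (adjusted p = 0.0102 and 0.0199 from limma). In Rα+/+ mice their values were 0.43 and -0.23, and neither was called. The differences between the genotypes' responses, 0.27 and 0.81, were not called (adjusted p = 0.655 and 0.145 from limma). The Calr rise was not called without mouse 3 (0.55), and the Anxa1 rise was not called without mouse 3 (0.60) or mouse 4 (0.57). Between genotypes none of the 7 bridging molecules tested was called after either treatment, where 43 (PBS) and 12 (IL-4c) of the 445 genes tested were called.

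Among transcription factors known from Mertk, Timd4 or macrophage residency, Gata6, the factor that specifies large peritoneal macrophages, did not follow Timd4. It was at 503 and 712 normalized counts in PBS-treated and 536 to 654 in IL-4c-treated Rα+/+ mice, and its log2 changes were -0.00 (95% interval -0.35 to 0.35) and -0.06 (interval -0.40 to 0.27) in Rα+/+ and RαTd/Td mice, intervals that do not reach those of Timd4. Cebpb, a factor of inflammatory and alternative activation, changed by -0.65 and -0.90, and Stat6, which carries the IL-4 receptor signal, by -0.59 and -0.43, and all 4 changes were called.

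Klf4 and Irf4, both tied to alternative activation, rose in Rα+/+ mice by 1.64 and 0.55 on the log2 scale (adjusted p = 0.00375 and 0.0277 from limma). In RαTd/Td mice their values were 0.71 and -0.11 and were not called, and the differences between the responses were not called (adjusted p = 0.381 and 0.219 from limma). The Irf4 rise was 0.30 without mouse 2 and 0.44 without mouse 6, neither of which was called. After centring on the median gene the Stat6 falls were -0.29 and -0.17 and the Cebpb fall in Rα+/+ mice was -0.36, none of which was called. Nr1h3, the LXRα gene, was above the floor in 2 IL-4c-treated Rα+/+ mice, at most at 48.1 normalized counts, and in no other mouse, and Pparg was at the floor in every mouse.

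**Figure D5:**
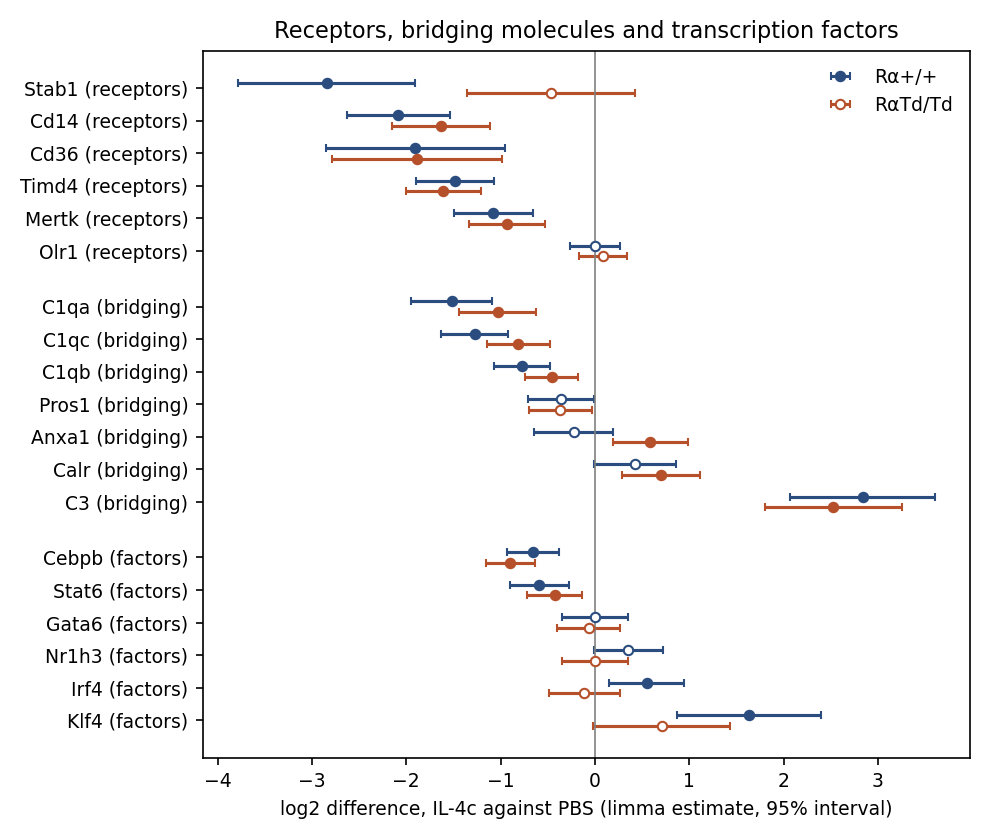
Limma estimates of the log2 change with IL-4c, with 95% intervals, for the receptors, bridging molecules and most of the transcription factors tested, in Rα+/+ (blue) and RαTd/Td (orange) mice. Filled points have an adjusted p of 0.05 or less. Mertk and Timd4 lay with Cd14 and Cd36 on the lower side in both genotypes, Gata6 lay at 0 and C3 rose by more than any other gene shown.

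The steps that follow recognition were measured in part. Of 5 engulfment genes tested, Vav1, a guanine nucleotide exchange factor for Rac downstream of MERTK, fell by 0.67 on the log2 scale in both genotypes, and Syk, a kinase of phagocytic receptors, fell by 0.54 and 0.43 in Rα+/+ and RαTd/Td mice. The Syk falls were not called after centring on the median gene (-0.24 and -0.17), nor was that of Vav1 in Rα+/+ mice (-0.37). Without mouse 4 the Vav1 change in RαTd/Td mice was -0.52, and without mouse 3 that of Syk was -0.35, neither called. Of 8 genes of corpse digestion and lipid handling, 4 fell in Rα+/+ mice and 3 fell and 2 rose in RαTd/Td mice, beside 32.4% and 36.6% of all tested genes called lower and, in RαTd/Td mice, 15.3% called higher. Apoe, a lipid carrier, changed by -5.77 and -5.14, Lpl, the lipoprotein lipase gene, by -3.38 and -2.54, and Ctss, a lysosomal protease, by -1.03 and -0.95. Ctsl and Ctsd, which encode the lysosomal proteases cathepsin L and cathepsin D, rose in RαTd/Td mice by 1.59 and 0.44. Not called were Lpl in Rα+/+ mice without mouse 1 (-3.08), Lpl in RαTd/Td mice without mouse 1, 3 or 4 (-2.55 to -2.53), and Ctsd without mouse 1, 3, 4, 6, 11 or 12 (0.34 to 0.47).

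Among the genes tied to TAM receptor signalling, Ifnar1, Ifnar2 and Tgfb1 fell in both genotypes and Socs3 fell in RαTd/Td mice. TAM receptors signal through the interferon receptor chain that Ifnar1 encodes, which changed by -1.23 and -0.85. Socs3, a feedback inhibitor of cytokine signalling that TAM signalling induces, changed by -1.02 in RαTd/Td mice (adjusted p = 0.0029 from limma) and by -0.26 in Rα+/+ mice (adjusted p = 0.367 from limma). Of the find-me and restraint signals, S1pr1, a receptor for sphingosine 1-phosphate, changed by -2.09 and -1.90, and Cd47, the don't-eat-me signal, by -0.38 and -0.48. The smaller of these calls were lost when single mice were left out, for Ifnar2 mouse 1 in Rα+/+ (-0.40) and mouse 4 in RαTd/Td mice (-0.49), and for Cd47 mouse 1, 4, 5, 6 or 7 in Rα+/+ (-0.40 to -0.31) and mouse 4 in RαTd/Td mice (-0.42). After centring on the median gene the changes of Cd47 were -0.08 and -0.22 and those of Ifnar2 -0.26 and -0.33, and that of Tgfb1 in Rα+/+ mice was -0.36, none of them called. After quantile normalization Cd47, at -0.04 and -0.17, and Ifnar2 in Rα+/+ mice, at -0.21, were not called either.

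Over the 7 lists together, which hold 122 genes, the panel measured 49 and 41 were tested, Mertk and Timd4 among them. After IL-4c, 22 fell and 3 rose in Rα+/+ mice and 23 fell and 5 rose in RαTd/Td mice, with median log2 changes of -0.55 and -0.48 against -0.18 and -0.23 over all tested genes. Of all tested genes, 32.4% were called lower and 13.9% higher in Rα+/+ mice, and 36.6% and 15.3% in RαTd/Td mice. After IL-4c 3 genes, Mertk, Cd14 and Rab20, were called higher in RαTd/Td than in Rα+/+ mice. Of all tested genes 1.57% were called higher there. None of the 41 was called in the test of the difference in response, in which 2.02% of all tested genes were called. Rab20, a small GTPase of phagosome maturation, was higher by 0.72 (adjusted p = 0.0421 from limma), a call kept in 5 of 24 alternatives and lost without any one mouse other than 9 (0.60 to 0.79).

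Markers of large peritoneal macrophages other than Timd4 did not all fall. Adgre1 was 0.50 higher after IL-4c on the log2 scale in Rα+/+ mice (adjusted p = 0.0187 from limma) and 0.36 in RαTd/Td mice, where it was not called, and the rise was not called without mouse 2 (0.41) or mouse 7 (0.42). Gata6 is described above. Selp, the P-selectin gene, fell by 1.01 and 0.99, and Cxcl13, a B cell chemokine, fell to the floor in every Rα+/+ mouse given IL-4c and to between 87.6 and 484 normalized counts in RαTd/Td mice (log2 fold change -2.81, adjusted p = 0.0044 from limma). After IL-4c Cxcl13 was called higher in RαTd/Td mice (adjusted p = 0.0421 from limma), a call kept in 10 of 24 alternatives and lost without any one mouse other than 9 or 10 (2.17 to 2.62). Laptm5, a lysosomal membrane protein gene, fell in RαTd/Td mice by 0.39 (adjusted p = 0.042 from limma), a call kept in 12 of 25 alternatives and lost after centring on the median gene (-0.13) and without mouse 3, 4, 5, 6, 7, 9, 10 or 12 (-0.43 to -0.35). The summed level of the 6 macrophage lineage markers on the panel was 22091 to 23702 and 21890 to 21895 normalized counts in PBS-treated Rα+/+ and RαTd/Td mice and 23406 to 24533 and 23842 to 28776 after IL-4c. Within this list Csf1r, the receptor gene for the growth factor CSF1, fell by 0.97 and 0.98 on the log2 scale in Rα+/+ and RαTd/Td mice. Fcgr1, the high-affinity IgG receptor gene, fell from between 162 and 220 normalized counts in the 4 PBS-treated mice to the floor in all but 1 IL-4c-treated mouse, at 64.3. Both falls were called in each genotype and in all alternatives that tested the gene. Cd68 rose by 0.83 and Mrc1, the mannose receptor gene, by 1.69 in RαTd/Td mice, and the Mrc1 rise was not called without mouse 3 (1.62) or mouse 4 (1.75).

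Markers of other cells were low but moved with IL-4c. Ms4a1, which encodes CD20 and was the only B cell marker of 8 on the panel, was between 105 and 242 normalized counts in the 4 PBS-treated mice, at the floor in each of the 3 Rα+/+ mice given IL-4c and at most at 63.1 in the IL-4c-treated RαTd/Td mice. Of 7 neutrophil markers on the panel 3 were detected, summing to 334 to 630 in PBS-treated and at most 151 in IL-4c-treated mice, most of it Csf3r, the granulocyte colony-stimulating factor receptor gene. S100a9, a defining neutrophil gene, was at the floor in all but 1 mouse, and both T and NK cell markers on the panel were at the floor in all mice. Of 5 dendritic cell markers only Batf3 was detected, at most at 75.4. The part of these cells in the fall of Mertk and Timd4 was not tested.

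The genes whose log2 values followed Mertk most closely over the 11 mice were Birc3, an inhibitor of apoptosis (Pearson r = 0.963), Cd14 (0.962), Ctss (0.960), Syk (0.959) and Vav1 (0.953), and those that ran most opposite were Ppia (-0.928), Il1a (-0.888) and Nubp1 (-0.875). For Timd4 they were Man2b1, a lysosomal mannosidase (0.990), Csf3r (0.983), Nlrp3 (0.980), H2-Ob (0.978) and Dusp1 (0.976), and on the opposite side Arg1, the arginase of alternatively activated macrophages (-0.976) and Ppia (-0.965). Il1a, Nlrp3 and H2-Ob were at the floor in 4, 4 and 5 mice. Mertk and Timd4 correlated with each other at r = 0.875, and Timd4 ranked 56th of 444 genes by likeness to Mertk. These values describe mice that share their treatment groups and the scaling to the housekeeping genes, and no gene was in both lists of closest genes.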

How the data were processed

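Sorted peritoneal macrophages of 11 mice were measured with a Nanostring panel. The authors normalized the raw counts in the Nanostring software to Eef1g, Gusb, Oaz1 and Rpl19. The table deposited holds signal on a linear scale, as normalized counts, with low values set to 30. The software's version is not given in the sources used here. The fourth IL-4c-treated Rα+/+ mouse, which the study left out, was not used here.

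Each mouse's scaling factor was recovered from its values, which were whole counts times that factor for 100% of values above the floor and up to 1000 (tolerance 0.1 counts), and exact 95% Poisson intervals cover counting error only. Genes with a mean above 30 (445 of 754) were tested on log2(value + 1) with limma 3.58.1 (R 4.3.3), fitting a mean for every group over all 11 mice, with empirical Bayes moderation and Benjamini-Hochberg adjustment over all genes tested in each comparison. Fold changes are on the log2(value + 1) scale. Groups of 2 mice borrow the spread of the others, and p-values measure only the spread between these mice. Single values were also tested by exact permutation (SciPy 1.17.1 and Python 3.11.15). Alternatives changed the scaling, the filter, the pseudocount, the moderation, the test and the mice.

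Mertk and Timd4, the gene lists and the tests were chosen with earlier results of these data known. Named genes are Mertk, Timd4, Retnla, the members above the floor of the receptor, bridging molecule and transcription factor lists, the called members with the 3 largest rises and falls in other lists, and the genes most and least correlated with each receptor. Others named were chosen after their values were seen. Some genes that this rule names are not reported here.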

Additional observations from a re-analysis of the deposited data

Results flagged for a closer look

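In each group of 4 mice, the highest or lowest mouse was compared with the range of the group by Dixon's ratio, the gap to the nearest mouse over the whole range. Of 38 genes and ratios tested in the IL-4c-treated RαTd/Td mice, 2 had a mouse beyond the 95% critical value of this ratio, and chance alone passes it in about 1 of 20 groups. Neither Mertk, Timd4 nor their ratio was among them. C3 was lower in 1 mouse, at 3631 normalized counts against 5702 to 6100 in the other 3 (ratio 0.839), all above the 474 to 980 of the PBS-treated mice. Olr1 was at 37.9 in 1 mouse and at the floor in the other 3 (ratio 1), so that the ratio there reflects the floor.

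The IL-4c response of Retnla differed between the genotypes by -5.03 on the log2 scale (SE 0.21, adjusted p = 3.66e-07 from limma), RαTd/Td minus Rα+/+. All 6 RαTd/Td mice were at the floor, so the value is the rise in Rα+/+ mice alone. The responses of Mertk and Timd4 did not pass the same test.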

How the results depend on the processing

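The falls of Mertk and Timd4 with IL-4c were called under all 25 alternatives in each genotype, with log2 changes of -1.23 to -0.78 and -1.15 to -0.64 for Mertk and -1.79 to -1.16 and -1.83 to -1.35 for Timd4 in Rα+/+ and RαTd/Td mice. The Mertk difference between genotypes after IL-4c (0.78) was not called with no filter (0.78), after centring on the median gene (0.59) or quantile normalization (0.57), scaled to Oaz1 (0.77) or Rpl19 (0.74) alone, in a fit of only these groups (0.78) or by the methods' t-test, adjusted (0.78), and with 1 mouse left out it ranged from 0.68 to 0.92. The Mertk difference after PBS was called when scaled to Gusb alone (0.80), and the Timd4 difference after IL-4c (0.33) passed the threshold only in the methods' t-test without adjustment. With 1 mouse left out the Timd4 difference after PBS ranged from 0.14 to 0.77. The difference in response turned sign for Mertk when scaled to Gusb (-0.064) and without mouse 1 (-0.011; range -0.01 to 0.30), and for Timd4 when scaled to Rpl19 (0.14) and without mouse 2 (0.19; range -0.44 to 0.19). Over both treatments, the exact permutation test of Timd4 between genotypes was no longer below 0.05 after median centring (0.22, p = 0.143), quantile normalization (0.22, p = 0.271) and scaling to Rpl19 (0.22, p = 0.0619), nor was that of the ratio after quantile normalization (-0.28, p = 0.133). With 1 mouse left out these ranged from 0.23 to 0.55 and from -0.40 to -0.24, and the fall of the ratio with IL-4c from -0.62 to -0.46.

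The number of genes called between genotypes after PBS (43) was 18 with no filter, 26 after median centring, 23 after quantile normalization, 22 and 12 scaled to Oaz1 and Rpl19, 3 in a fit of only these groups and 2 by the adjusted t-test, and 3 to 73 with 1 mouse left out. After IL-4c (12) it was 5 with no filter, 7 with a mean above 100, 6 with genes above 30 in every mouse, 6 scaled to Rpl19, 2 in a fit of only these groups, 73 by the unadjusted and 2 by the adjusted t-test, and 5 to 27 with 1 mouse left out. For the difference in response (9) it was 4 with a mean above 100, 2 with genes above 30 in every mouse, 18 after quantile normalization and 3 to 30 with 1 mouse left out. The cause of these changes was not tested. The count test planned for whole counts was not run, since low values were replaced by the floor. No paired analysis was possible because the groups share no mouse numbers. With 2 mice per PBS-treated group, the number of mice limits precision more than the counts per gene.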
